A study of Chrysanthemum x morifolium with 12 samples.

Results

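A set of 132 probes gave much lower signals in white chrysanthemum petals than in petals of both green cultivars. The probes were taken from 176026 on each array, of which 70270 had a mean background-corrected intensity of at least 100 over the 12 arrays. They were chosen by the petal values themselves. The mean log2 level had to be at least 4 lower in FW petals than in FGD petals and than in FG petals, and the means of FGD and FG petals had to be less than 1 apart. A further 3 probes were left out by name in the rule.

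RNA of 4 groups of 3 biological replicates was hybridized by the 1-color method, 1 array for each RNA sample. They were mature leaves of FG (Feeling Green) and middle-stage (stage 2) ray floret petals of FW (Feeling White), FGD (Feeling Green Dark), and FG, all from plants grown in a greenhouse in natural daylight. FW and FGD arose as bud sports of FG, that is, as shoots of that plant with altered flowers, so that the 3 cultivars share 1 parent line and each bud sport stands for a single event. The labels name no agent and no introduced or deleted gene in any group.

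Chlorophylls (Chls) give leaves and young petals their green color, and most petals lose them as they open. The petals of green-flowered cultivars keep them. Chl synthesis, the turnover between Chl a and Chl b, and Chl breakdown are each carried out by a known series of enzymes, and in leaves several transcription factors control their genes. A probe on this array stands for 1 contig of expressed sequences, and most contigs carry no gene name in the files. Only 10 of the 132 probes were paired with a gene name through the lists of the study, and all 10 encode transcription factors. The other 122 are given by their probe name.

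Levels are log2 intensities relative to the 75th percentile of the array, so that 0 is the intensity that 25% of its probes exceed. That intensity was 188 to 209 on the FG leaf arrays, 308 to 327 on the FW petal arrays, 308 to 347 on the FGD petal arrays, and 339 to 346 on the FG petal arrays. A level depends on the probe as well as on the transcript, and probes are therefore not ranked against each other by level. In these bulk RNA samples, fewer cells with a transcript and less transcript for each cell cannot be told apart. The leaf samples were checked with *CHLH*, *CRD*, *HEMA1*, and *PORC*, which encode enzymes of Chl synthesis. Each was higher in FG leaves than in FG petals, by 2.19 to 3.57 on the log2 scale, and *SGR*, which encodes the enzyme that removes magnesium from Chl, was lower by 2.63. The study had singled out these genes on these same arrays for their relation to Chl content, so that they are no independent check. Of the 25 Chl probes of the study with a mean intensity of at least 100, 18 were higher and 3 lower in FG leaves by adjusted p (limma). Of all probes tested, 33.8% were higher and 43.1% lower. *PORA*, also of Chl synthesis, was lower by 1.16.

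The size of the drop in FW petals is a description, because it chose the probes. The median difference of FW minus FGD petals was -5.11 on the log2 scale (range -7.43 to -4.01), and that of FW minus FG petals was -4.66 (range -7.81 to -4.01). As folds, FGD petals exceeded FW petals by 34.5-fold at the median (16.1 to 172.9) and FG petals exceeded them by 25.3-fold (16.1 to 223.8). All 132 probes passed an adjusted p under 0.05 and a fold over 5 in both comparisons, where 3.25% of all probes tested were lower in FW than in FGD petals and 2.04% were lower in FW petals than in those of FG by the same criteria. The rule guarantees the direction of all of these calls, and nothing is read from their number. The level in every FW array lay below the level in every FGD and FG petal array, for each of the 132 probes. The rule favors such separation, its share over all probes is not given here, and nothing is read from this count either. The distance between the highest FW array and the lowest green petal array was 3.70 at the median and was smallest, 0.63, for PD0028_083657, where FW petal replicate 1 was at -2.41 and the other FW replicates were at -6.40 and -5.21.

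The green petals were nearly level with each other, again by the rule. FGD petals were above FG petals for 99 of the 132 probes, with a median difference of 0.60 (range -0.99 to 0.99). Without the limit on that difference, another 114 probes were at least 4 lower in FW petals than in both green cultivars, and FGD petals were above FG petals for 99 of these. Just inside the limits lay PD0028_014891 and PD0028_064348, with FG petals 4.01 above FW petals, and just outside it lay PD0028_049947 and PD0028_082089, with 3.99. For FGD petals above FW petals, the nearest probes were PD0028_071231 (4.01) and PD0028_165500 (4.02) inside, and PD0028_091489 (3.98) and PD0028_063688 (3.97) outside. The 2 green cultivars differed by 0.99 for PD0028_074756 and PD0028_040107, which were taken, and by 1.01 for PD0028_161353 and PD0028_120722, which were not. The mean intensity was 100.3 for PD0028_110741 and 100.4 for PD0028_074756 inside, and 96.2 for PD0028_043824 and 93.0 for PD0028_075570 outside.

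In FW petals many of these probes were close to the background of the array. All 132 probes were well above background on every FGD and FG petal array. On the FW petal arrays, 78 were well above it on all 3 arrays, 12 on 2, 14 on 1, and 28 on none. The median intensity over the 132 probes was 22.3 to 29.5 on an FW petal array, against 869 to 899 on an FGD petal array and 688 to 771 on an FG petal array. For the 28 probes that were above background on no FW array, the fold is only a bound, taken against the dimmest signal that still counted as well above background on an FW array. By that bound, FGD petals exceeded FW petals at least 5.92-fold to 85.6-fold (median 26.4), and FG petals exceeded them at least 5.86-fold to 126.3-fold (median 20.5). In both comparisons, 17 of the 28 bounds reached 16-fold, which corresponds to the limit of the rule. The spread between FW replicates was wide at these low intensities. The median SD of the 132 probes was 0.47 in FW petals, 0.24 in FGD petals, and 0.24 in FG petals, whereas over all probes tested it was 0.12, 0.12, and 0.10 in the same groups.

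The arrays lay on 3 slides, and no slide held FW petals beside both green cultivars. Slide 1 held FW petal replicate 1 and the 3 FG petal replicates. There, FW was below FG for all 132 probes, by a median of -4.84 (range -9.14 to -2.22), and 118 of them were at least 4 lower. On slide 2 were replicates 2 and 3 of FW petals with replicates 1 and 2 of FGD petals. There, FW was below FGD for all 132 probes, by a median of -5.09 (range -7.33 to -3.49), and 127 were at least 4 lower. These differences come from the same petal arrays that chose the probes, and their size is given as a description.

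To see the drop in an FW array that had not set the FW mean, the rule was applied with each FW array left out in turn. The FGD and FG means it was set against had still been selected on, and the left-out array still counted in the intensity cutoff, so that these values too are a description. Without FW petal replicate 1 it took 119 probes, and in that replicate all 119 were below both green cultivars, by medians of 5.28 for FGD and 4.72 for FG, with 91 at least 4 below both. Without FW petal replicate 2 it took 177 probes. In that replicate all 177 were below both, by medians of 4.44 and 3.97 for FGD and FG, and 82 were at least 4 below both. Without FW petal replicate 3 it took 133 probes, all below both in that replicate, by medians of 4.94 for FGD and 4.51 for FG, with 96 at least 4 below both. Between 109 and 117 of the 132 probes were among those taken each time. In each left-out array every probe taken was lower than in both green cultivars, and a part of them fell short of the limit of 4.

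Among the probes that were well above background on all 9 petal arrays, PD0028_071119 dropped most. It had levels of -4.55, -4.29, and -3.81 in FW petals, against 2.64, 2.41, and 2.53 in FGD petals and 2.29, 2.19, and 2.64 in FG petals, a mean drop of 6.67 on the log2 scale with no overlap. PD0028_045980 had a mean drop of 6.05, with levels of -2.45, -1.13, and -1.51 in FW petals, against 4.88, 4.70, and 4.60 in FGD petals and 4.22, 4.12, and 3.64 in FG petals. PD0028_052413 (6.04) and PD0028_003422 (5.93) came next. These 4 drops rest on measured signals in every petal array.

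Where FW petals were not above background, the fitted drop rests on signals at the floor and only the bound is read. PD0028_141133 had levels of -6.41, -5.59, and -5.73 in FW petals, against 2.08, 1.21, and 0.51 in FGD petals and 2.54, 2.22, and 0.93 in FG petals. It was above background on no FW array, and its bounds were at least 81.5-fold for FGD and at least 126.3-fold for FG over FW petals. PD0028_172427 had intensities of 1.87, 2.11, and 2.13 in FW petals, against 364, 306.6, and 414.7 in FGD petals and 399.8, 376.2, and 423.1 in FG petals. The signal of this probe was at the floor of all 3 FW arrays and nearly constant elsewhere, and its bounds were at least 37.8-fold and at least 39.5-fold for FGD and FG petals over FW petals. PD0028_051974, measured on 2 of the 3 FW arrays, was at -4.64, -5.93, and -4.63 in FW petals, against 2.33, 1.52, and 0.83 in FGD petals and 2.89, 2.58, and 1.30 in FG petals. Neither PD0028_022158 nor PD0028_116977 was above background on any FW array. Their bounds for FGD over FW petals were at least 42.7-fold and at least 35.0-fold. The files give no gene for any of these 5 probes.

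FG leaves had no part in the limits on the petal levels, and they were used to ask whether a probe lost in white petals is also expressed in green leaves. FG leaf was compared with each petal group in a single limma fit of the 12 arrays, with Benjamini-Hochberg adjustment over the 70270 probes tested. A probe was called at an adjusted p under 0.05 and a fold over 5. The petal levels that enter these comparisons had been selected on, which favors high green petal values and low FW values, and the leaf arrays counted in the mean intensity of at least 100. For 8 of the 132 probes the mean over the 9 petal arrays was only 44.3 to 87.1, so that they were members through their leaf signal alone. They were PD0028_020465, PD0028_046720, PD0028_058266, PD0028_069930, PD0028_082245, PD0028_100279, PD0028_113032, and PD0028_176916. The comparison with FG petals was therefore also made with the cutoff on the 9 petal arrays, in which the leaf had no part, an alternative chosen after seeing the data.

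Of the 132 probes, 36 (27.3%) were called higher in FG leaves than in FG petals, where 6.82% of all probes tested were called higher, and 37 (28.0%) were called lower, where 7.06% were called lower. Of the 36, 8 were the probes that passed the cutoff through leaves alone and so had to be high there. With the cutoff on the 9 petal arrays, the rule took 127 probes, 124 of them among the 132, and 28 of the 127 were called higher in leaves, where 4.68% of all probes were, and 40 (31.5%) lower, where 7.47% were. Both shares were above those of all probes with either cutoff. The median difference of FG leaf minus FG petal was 0.30 over the 132 probes and -0.11 over all probes tested, and its lower and upper quartiles were -3.22 and 2.41. With the cutoff on the petal arrays the median was -0.15, against -0.16 over all probes. The probes had no common leaf level. At any fold, 65 probes (49.2%) were higher in leaves by the adjusted p, where 33.8% of all probes were, and 48 (36.4%) were lower, where 43.1% were. The remaining 19 did not pass it, and for 5 of these the 95% interval of the difference lay between -1 and 1. With intensities raised to a floor of 100, the number called lower was 19, and with normexp background correction it was 21. FG leaf and FG petal arrays were on different slides, and a fit with a term for each slide called 27 probes higher and 30 lower. For the floor, normexp, and the slide term, the shares of all probes are not given here.

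Against FGD petals, 21 probes (15.9%) were called higher in FG leaves, where 6.99% of all probes were, and 38 (28.8%) were called lower, where 7.16% were. On slide 3, which held FGD petal replicate 3 and the 3 leaf arrays, 15 of the 21 were over 5-fold higher in leaves and 36 of the 38 over 5-fold lower, and all 59 kept the sign. These arrays were also in the fit that made the calls, which favors the same sign. The slide 3 counts are therefore a description, and their shares over all probes are not given here. With the cutoff on the 9 petal arrays, 14 of the 127 probes taken were called higher and 41 lower. With intensities raised to a floor of 100 the number called lower was 23. The shares of all probes under these alternatives are not given here, so that these counts are not set against them. The comparisons with FGD and FG petals share the leaf arrays. Of the 36 probes called higher than in FG petals, 20 were also called higher than in FGD petals, and all 37 called lower than in FG petals were called lower than in FGD petals.

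Against FW petals, 100 probes (75.8%) were called higher in FG leaves, where 10.1% of all probes were, and 3 (2.27%) were called lower, where 7.51% were. The low FW values were selected on, so that the number higher is in part fixed by the choice. That number was 70 with intensities raised to a floor of 100, and 78 with normexp background correction. For 21 of the 100, FW petals were not above background on any array, and 18 of these 21 exceeded 5-fold by the bound. The rule set FW petals at least 4 below FG petals. That fixed the fold of leaves over FW petals for probes called higher than in FG petals, and favored it for those called in neither direction. Nothing is read from the counts of these 2 sets. All 36 probes called higher in FG leaves than in FG petals were also called higher than in FW petals, as were 58 of the 59 that were called in neither direction. The exception was PD0028_140517, which was 1.73 higher in leaves than in FW petals (adjusted p = 0.000605, limma), short of 5-fold. Of the 37 probes called lower in leaves than in FG petals, 28 were called in neither direction against FW petals, 6 were higher than in FW petals, and 3 were lower.

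The leaf levels put the 132 probes into several orders. By mean level, the order FG leaf, FGD petal, FG petal, FW petal from high to low was the most frequent, with 55 probes. In 31 probes the order was FGD petal, FG petal, FG leaf, FW petal. Leaves were the lowest group in 18 probes, and FW petals in the other 114. For the 8 probes named above, a high leaf level was needed to be taken at all. These are orders of means, and in 19 probes the difference of FG leaf from FG petal did not pass the adjusted p.

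The 36 probes called higher in leaves had a median level of 4.64 in FG leaves, -3.50 in FW petals, 1.10 in FGD petals, and 1.02 in FG petals. All 36 were well above background on all 3 leaf arrays, and the leaf arrays did not overlap the FG petal arrays for any of them. A call over 5-fold favors such separation, and its share over all probes is not given here. Their differences of FG leaf minus FG petal ran between 2.36 and 5.50. The largest belonged to PD0028_130511, with levels of 4.91, 4.95, and 5.03 in FG leaves, against -0.62, -1.13, and 0.14 in FG petals, a difference of 5.50 ± 0.52 (SE, adjusted p = 2.73e-06, limma). In FW petals this probe was at -4.82, -7.17, and -5.82, and it was above background on 1 of these arrays. PD0028_054924 had almost the same profile, at 6.25, 6.33, and 6.32 in FG leaves, against 0.73, 0.17, and 1.55 in FG petals, with a difference of 5.49 ± 0.56 (SE, adjusted p = 5e-06, limma). Their deviations from the group means ran together, and whether they measure the same transcript was not tested.

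PD0028_058266, one of the 8 probes taken through their leaf signal, was 4.93 ± 0.12 (SE) higher in FG leaves than in FG petals (adjusted p = 1.21e-10, limma). Its levels were 3.82, 3.52, and 3.46 in FG leaves and -6.95, -7.20, and -7.10 in FW petals, against -1.37, -1.63, and -1.27 in FGD petals and -1.25, -1.44, and -1.29 in FG petals. FW petals were above background on no array, so that leaves exceeded FW petals at least 412.5-fold. PD0028_014891 was 4.51 ± 0.38 higher in leaves (adjusted p = 1.08e-06, limma). PD0028_122993 was also 4.51 ± 0.18 higher, with intensities of 31470, 32250, and 34100 in FG leaves, against 2668, 2581, and 2284 in FG petals. In FW petals the signal of PD0028_122993 was 108.4, 119.6, and 79.9, which was well above background on each array. These 5 probes ran, from high to low, FG leaf, green petals, FW petals, without overlap between those 3 kinds of tissue. They were named for a high leaf level without overlap with FG petals, and the rule had set FW petals low. This order therefore restates how they were chosen, and nothing is read from it.

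The 37 probes called lower in leaves had a median level of -3.60 in FG leaves and -4.06 in FW petals, against 1.26 in FGD petals and 0.90 in FG petals. Of these 37, 20 were well above background on all 3 leaf arrays, 4 on 2, and 5 on 1. The other 8 probes were above background on no leaf array, and for each of them the bound of FG petals over leaves was above 5-fold (14.8 to 125.4). The leaf and FG petal arrays did not overlap for 36 of the 37, which their calls likewise favor. The exception was PD0028_035512, with levels of -5.34, -0.86, and -5.43 in leaves, against -1.05, -0.67, and -1.54 in FG petals. The replicates of this set varied more than those of the other probes. The median SD was 0.70 in FG leaves, 0.51 in FW petals, 0.40 in FGD petals, and 0.52 in FG petals, whereas for the 36 probes higher in leaves it was 0.11, 0.41, 0.25, and 0.20 in the same groups.

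The lowest leaf values against FG petals were those of PD0028_077760 and PD0028_074017. PD0028_077760 had intensities of 5.62, 15.6, and 2.86 in FG leaves, against 5000, 4704, and 5212 in FG petals, a difference of -8.81 ± 0.43 (SE, adjusted p = 1.7e-08, limma). PD0028_074017 had intensities of 6.71, 23.1, and 7.88 in FG leaves, against 7043, 6957, and 7849 in FG petals, a difference of -8.60 ± 0.34 (SE, adjusted p = 3.29e-09, limma). Both were well above background on 1 leaf array only. In FW petals, PD0028_077760 had intensities of 116.8, 99.4, and 112.3 and PD0028_074017 of 209.5, 195.8, and 209.4, so that leaves were lower than white petals as well, by 3.43 and 3.57 on the log2 scale (adjusted p = 2.42e-05 and 2.35e-06, limma). The third probe called lower in leaves than in FW petals was PD0028_042631, which was above background on no leaf array, so that FG petals exceeded leaves at least 45.1-fold. These 3 probes were signals of petals that were reduced, but still measured on each array, in white petals. All 3 calls against FW petals were lost with intensities raised to a floor of 100.

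PD0028_057325 was at the floor of all 3 leaf arrays, and FG petals exceeded leaves at least 125.4-fold. Its FW petal replicates were far apart, at -6.77, -1.94, and -2.68. PD0028_038705 differed by -7.32 ± 0.62 between FG leaves and FG petals (SE, adjusted p = 1.19e-06, limma). Its intensities were 93.8, 350.4, and 42.2 in FG leaves and 335.9, 1052, and 843 in FW petals, against 61230, 52850, and 54460 in FGD petals and 35850, 32840, and 25700 in FG petals. Another 4 probes were above background on no leaf array and no FW petal array, and were measured in green petals alone: PD0028_116977, PD0028_013664, PD0028_074756, and PD0028_045334.

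Of the 59 probes between these sets, PD0028_172427 was close to the same level in all green tissues. Its level was 0.27, 0.11, and 0.16 in FG leaves, against 0.22, -0.01, and 0.26 in FGD petals and 0.24, 0.13, and 0.29 in FG petals. The difference of FG leaf minus FG petal was -0.04 (95% interval -0.24 to 0.16). PD0028_071119 behaved likewise, with a difference of -0.23 (95% interval -0.70 to 0.24). For PD0028_022158 the interval was -1.36 to 0.52, and for PD0028_003422 it was -1.16 to 1.50, too wide to tell whether leaf and petal levels differed. PD0028_043420 was bright in green petals, at 8.61, 8.64, and 8.83 in FGD petals and 8.33, 8.53, and 8.23 in FG petals. It had 3.85, 4.45, and 3.89 in FW petals, where its intensity was still 4514 to 7119. In FG leaves it was 1.68 higher than in FG petals (adjusted p = 2.57e-06, limma), short of 5-fold. PD0028_065704 and PD0028_046754, also bright in green petals, were called higher in FG leaves than in FG petals, by 2.92 and 2.65.

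For petals of FW set against those of FG, the study lists 27 transcription factor probes with the lower signal in FW, and 10 of the 132 probes are on that list. The list was chosen by the study on these same arrays and is no independent evidence of the drop. Of its other 17 probes, 3 were left out by the rule, 5 had a mean intensity below 100, 4 were less than 4 below FG petals, 2 were less than 4 below FGD petals, and 3 had FGD and FG petals 1 or more apart. The 10 probes carry 6 names. Probes of the same name may measure the same transcript, or near-identical gene copies, and were not counted as separate genes. In FG leaves, 1 of the 10 probes was called higher than in FG petals, 6 were called lower, and 3 were called in neither direction. Of all probes tested, 6.82% were called higher and 7.06% lower. The 1 probe called higher passed the intensity cutoff through leaves alone, so that it had to be high there.

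The 3 probes of homeobox protein 40 (HD40) stand for a homeodomain-leucine zipper transcription factor that is known in Arabidopsis for its action in axillary buds. The study measured this gene by RT-qPCR with a primer pair listed for HB40, shown here because it is the one designed sequence given for a gene of the set:
HB40 forward primer: cactgtccttgataaatgccgtct
HB40 reverse primer: tgatattccatccgatcgctccac
The study marks PD0028_076607 as the probe of the measured gene. In late-stage petals of other white- and green-flowered cultivars, the study found no correlation of its RT-qPCR level with Chl content. The RT-qPCR values are not used here.

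PD0028_076607 had intensities of 16.9, 24.1, and 28.6 in FG leaves and 27.2, 34.4, and 32.0 in FW petals, against 979.7, 689 and 590.1 in FGD petals and 1066, 399.6, and 2280 in FG petals. Leaf and white petal signals were low and overlapped in range, and both lay far below every green petal array. The difference of FG leaf minus FG petal was -4.64 ± 0.50 (SE, adjusted p = 8.78e-06, limma), and that of FG leaf minus FW petal was 0.23 (95% interval -0.89 to 1.35). PD0028_069119 had levels of -2.32, -1.73, and -1.45 in FG leaves and -1.90, -1.71, and -1.40 in FW petals, against 3.34, 3.05, and 2.64 in FGD petals and 3.26, 2.10, and 4.44 in FG petals. PD0028_046802 had -1.76, -1.01, and -0.65 in FG leaves and -0.89, -0.67, and -0.49 in FW petals, against 4.15, 3.92, and 3.44 in FGD petals and 4.19, 3.01, and 5.31 in FG petals. These probes were called lower in leaves than in FG petals by 5.10 and 5.31 on the log2 scale (adjusted p = 2.67e-06 and 2.22e-06, limma). The FG petal replicates of HD40 were far apart, with replicate 3 highest and replicate 2 lowest on all 3 probes, and SDs of 1.26, 1.17, and 1.15, among which that of PD0028_076607 was the second widest of all 132 probes.

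Both other HD40 probes of the list missed the rule because FW petals were less than 4 below FGD petals. PD0028_093450 was 3.85 below FGD and 4.69 below FG petals, and PD0028_036988 was 3.70 below FGD and 4.61 below FG petals. In FG leaves they were 4.51 and 4.95 below FG petals (adjusted p = 1.83e-06 and 5.32e-05, limma). Thus all 5 HD40 probes were low in FW petals and in leaves and high in both green petals.

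The DREB and EAR motif protein 2 is a member of the ERF family, whose EAR motif is known from repressors of transcription, and is represented by 2 probes. PD0028_062703 had levels of 2.53, 2.26, and 2.35 in FG leaves and -2.05, -2.16, and -2.03 in FW petals, against 2.65, 2.71, and 2.55 in FGD petals and 3.21, 2.59, and 3.53 in FG petals. Leaves and green petals were near each other, and FW petals stood apart by more than 4. PD0028_043748 had 3.00, 2.78, and 2.83 in FG leaves and -1.36, -1.75, and -1.54 in FW petals, against 3.16, 3.25, and 2.91 in FGD petals and 3.74, 3.07, and 4.05 in FG petals. FG leaf minus FG petal was -0.73 and -0.75 for the 2 probes (adjusted p = 0.00475 and 0.00755, limma), and with the slide as a block it was -0.55 and -0.18 (adjusted p = 0.364 and 0.787). FG leaf minus FGD petal was -0.25 (95% interval -0.67 to 0.17) and -0.24 (95% interval -0.71 to 0.23). FG leaf exceeded FW petal by 4.46 ± 0.19 and 4.42 ± 0.21 (SE, adjusted p = 3.37e-09 and 8.62e-09, limma).

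Another 2 probes carry the name of an integrase-type DNA-binding superfamily protein, a name used for proteins with an AP2/ERF domain. PD0028_150651 had levels of -1.14, -2.10, and -0.95 in FG leaves and -2.28, -2.01, and -1.23 in FW petals, against 2.35, 3.16, and 3.38 in FGD petals and 2.13, 1.64, and 3.31 in FG petals. PD0028_082618 had -3.08, -4.21, and -2.79 in FG leaves and -4.26, -3.78, and -2.91 in FW petals, against 0.67, 1.65, and 1.39 in FGD petals and 0.10, -0.33, and 1.45 in FG petals. As for HD40, leaves and white petals were both low and overlapped. Leaves were lower than FG petals by 3.76 for both probes (adjusted p = 2.76e-05 and 6.58e-05, limma), and FG leaf minus FW petal was 0.44 (95% interval -0.61 to 1.49) and 0.29 (95% interval -0.88 to 1.46). Another 3 probes of this name, PD0028_082089, PD0028_098862, and PD0028_069340, missed the rule by a small margin, with FW petals 3.98 to 3.99 below FG petals. They were 3.52 to 3.64 lower in FG leaves than in FG petals.

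RADIALIS-LIKE SANT/MYB 3 belongs to a family of small proteins with a single MYB-type domain, named after the snapdragon gene for flower asymmetry. The study lists other probes of this name as far higher in FGD than in FG petals. The probe described here therefore does not stand for all probes of the name, and levels of the others are not given here. PD0028_010170 had levels of -2.21, -2.96, and -4.78 in FG leaves and -4.12, -4.33, and -4.61 in FW petals, against 1.43, 1.75, and 1.42 in FGD petals and 0.70, 0.87, and 0.76 in FG petals. Leaves were 4.09 ± 0.49 (SE) lower than FG petals (adjusted p = 1.9e-05, limma). The leaf replicates were far apart (SD 1.32), 2 of the 3 arrays were above background, and the difference of FG leaf minus FW petal was 1.04 (95% interval -0.05 to 2.13).

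The AP2/B3-like transcriptional factor was the named probe that was called higher in leaves, and is one of the 8 that passed the intensity cutoff through leaves alone. PD0028_100279 had levels of 2.21, 2.03, and 2.23 in FG leaves and -5.32, -7.02, and -5.94 in FW petals, against -1.14, -1.24, and -1.80 in FGD petals and -1.88, -1.99, and -1.87 in FG petals. It was 4.07 ± 0.34 (SE) higher in FG leaves than in FG petals (adjusted p = 1.08e-06, limma). It was above background on no FW array, and FG leaves exceeded FW petals at least 151.6-fold, FGD petals exceeded them at least 12.9-fold, and FG petals at least 9.03-fold.

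ILI1 binding bHLH 1 is named for a protein of the helix-loop-helix family that is known in rice and Arabidopsis for restraining cell elongation. Its probe PD0028_074156 had levels of 1.41, 1.82, and 0.80 in FG leaves and -3.73, -4.69, and -4.58 in FW petals, against 0.66, 0.57, and 0.83 in FGD petals and 0.26, -0.87, and 0.01 in FG petals. Leaves were 1.55 ± 0.35 (SE) higher than FG petals (adjusted p = 0.00186, limma), short of 5-fold, and overlapped FGD petals.

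The probes most like each named probe were found by Pearson correlation of the levels over the 12 arrays, among the 132. Such correlations are high by construction, because all of these probes are low in FW petals. The highest were between probes of the same name, 0.999 for both DREB and EAR motif protein 2 probes, 0.994 to 0.999 among the HD40 probes, and 0.997 for the integrase-type probes. Among probes of other names or none, PD0028_172427 (0.989) and PD0028_071119 (0.988) were most like PD0028_062703, PD0028_165500 (0.987) was most like PD0028_043748, and PD0028_013664 was most like PD0028_046802 (0.972) and PD0028_069119 (0.971). PD0028_074756 (0.962) was most like PD0028_076607, PD0028_110741 was most like PD0028_150651 (0.970) and PD0028_082618 (0.964), and PD0028_058266 (0.990) was most like PD0028_100279. PD0028_116977 (0.973) was most like PD0028_010170, and PD0028_044315 (0.982) was most like PD0028_074156.

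None of the 31 probes that the study lists for Chl synthesis, the Chl cycle, and Chl degradation was among the 132. Of the 25 of these with a mean intensity of at least 100, 18 were lower and 5 higher in FW petals than in FGD petals by the adjusted p of limma, and 17 were lower and 2 higher than in FG petals. Of all 70270 probes tested, 16863 were lower and 23628 (33.6%) higher in FW petals than in FGD petals, and 14082 (20.0%) were lower and 21392 (30.4%) higher than in FG petals. Of the 25, 5 and 3 were also over 5-fold lower in the same comparisons, where 3.25% and 2.04% of all probes tested were. The median differences were -1.20 for FW minus FGD petals and -0.84 for FW minus FG petals. The nearest to the rule was *PORB*, which encodes an enzyme that reduces protochlorophyllide in light, at -0.98 in FW petals, against 3.16 in FGD petals and 2.82 in FG petals.

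For comparison, the same rule was turned round. Only 15 probes were at least 4 higher in FW petals than in both green cultivars that were less than 1 apart, and 38 probes were at least 4 lower in FGD petals than in FW and FG petals that were less than 1 apart. Of those 38 probes lost in FGD petals, 23 (60.5%) were called lower in FG leaves than in FG petals and 0 higher, with a median difference of -4.18 for FG leaf minus FG petal. Of all probes tested, 7.06% were called lower and 6.82% higher. For the 132 probes lost in FW petals, 36 (27.3%) were called higher and 37 (28.0%) lower, with a median of 0.30. The 114 probes with the same drop but FGD and FG petals 1 or more apart were closer to the 132, with 37 (32.5%) called higher and 35 (30.7%) lower in FG leaves than in FG petals and a median of -0.42. Of the 15 probes raised in FW petals, 4 (26.7%) were called higher and 7 (46.7%) lower, with a median of -0.45. All of these sets used the intensity cutoff in which leaves counted. With the cutoff on the petal arrays, the median was -0.15 for the probes lost in FW petals, and that of the other sets is not given here. The difference between these sets of probes was not tested. The 132 probes lay over the whole length of the array, with 25, 42, 35, and 30 of them in 4 equal ranges of its rows, and none of their spots was marked as an outlier by the scanner software.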

How the data were processed

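RNA from FG leaves and from stage 2 petals of FW, FGD, and FG was hybridized to 12 custom arrays, 3 in each group. For each array the authors deposited the intensity of every spot, from which the scanner software had subtracted the background and a spatial trend. This software was Feature Extraction, 10.10.1.1 per the file headers, with other versions named elsewhere. Log2 values of the same arrays were deposited by the authors as well, with a zero point for each probe that is not stated. After centering, they differed from the levels computed here by at most 5.98e-05 over 176026 probes.

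The level of a probe was computed as its log2 intensity minus that of the 75th percentile of the array, without the 4854 control spots and with outlier spots (7 to 37 on an array) as missing. No spot was saturated. Group means of the deposited log2 values chose the probes. The members and the gene lists were chosen with earlier results of these data known. FG leaf was compared with each petal group with limma 3.58.1 under R 4.3.3, with 1 mean for each group, over the 70270 probes with a mean intensity of at least 100, and p-values were adjusted by Benjamini-Hochberg. The fit was tested on simulated data. Where a probe was well above background on no array of the dimmer group, a bound replaced the fold: each dimmer array was given the lowest level of any probe called above background there, or the level of the probe itself if higher, before the means were compared.

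The probes named were the 10 with a name in the lists of the study, the 6 with the largest drop, the 4 with the largest drop among those measured on all petal arrays, the 5 with the highest and the 5 with the lowest called leaf difference without overlap, the 4 with the highest level in green petals, those nearest to each limit, the 2 with the widest and 2 with the narrowest FG petal spread, and those most like each named probe; exceptions to a count were named after their values were seen. Alternatives were quantile and median normalization, a signal floor of 100, other signal filters, trended and robust variances, a fit of 2 groups, blocks for the slide or the replicate number, other limits, and leaving out each array. Normexp on the median signals (offset 50) and an intensity cutoff on the 9 petal arrays were chosen after seeing the data. With 3 arrays in a group the precision is limited. In the fit of all arrays, the p-values rest on the spread between samples within groups, pooled over all groups. A p-value for FG leaf against FG petal therefore also carries the spread within FW and FGD petals. Tables were handled with pandas 2.3.3 in Python 3.11.15. RT-qPCR and gene ontology were not analysed here.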

Additional observations from a re-analysis of the deposited data

How the results depend on the processing

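The number of probes lost in FW petals depended on its limits. It was 444 at a drop of at least 3 and 38 at a drop of at least 5, 41 with FGD and FG petals less than 0.5 apart and 209 with less than 2, 35 with intensities raised to a floor of 100, and 28 with normexp on the median signals, which was chosen after seeing the data. The floor and the normexp offset compress low signals by their construction. Under the other alternatives it was 109 to 170, and without 1 petal array 103 to 177. Low signals limited the leaf calls in the same way. With the floor of 100, 19, 23, and 0 probes were called lower in FG leaves than in FG, FGD, and FW petals, and with normexp 21, 24, and 0. The calls higher in leaves, in the same order, were 35, 20, and 70 with the floor and 28, 16, and 78 with normexp. With quantile normalization they were 29, 19, and 100. At any fold, 65 (49.2%) and 64 (48.5%) probes were higher in leaves than in FG and FGD petals, where 33.8% and 34.8% of all probes were. Against FW petals, whose low values were selected on, 7 (5.3%) were lower at any fold, where 48.2% of all probes were. With the slide as a block, 5 were lower in leaves than in FW petals. Without 1 array, the calls higher in leaves were 31 to 40, 19 to 27, and 99 to 101 against FG, FGD, and FW petals, and the calls lower were 36 to 38, 37 to 40, and 3 to 7, where 7 came without FW petal replicate 1. The median of FG leaf minus FG petal was 0.24 with quantile normalization, 0.44 with the floor, and 0.40 with the slide as a block. With the cutoff on the 9 petal arrays, chosen after seeing the data, it was -0.15, because 8 probes bright in leaves alone left the set and 3 that were lower in leaves entered. It was 0.25 to 0.75 without 1 array, with 0.75 without FG leaf replicate 1, 0.65 without FG leaf replicate 3, and 0.49 without FG petal replicate 2. The cause of these shifts of the median was not tested. The replicate numbers did not pair the samples, with correlations of deviations between -0.36 and 0.39 over 18 pairs of the same number. The fit with the replicate number as a block gave 36 probes higher and 37 lower than in FG petals and changed no other call count. Of 35 named probes under 22 settings, 2 of 770 values changed sign, those of PD0028_003422 (0.17) without FG petal replicate 3 (-0.20) and without FG leaf replicate 2 (-0.49), which passed the adjusted p in no setting, and 5 values lost the adjusted p: with the slide as a block, both DREB and EAR motif protein 2 probes, PD0028_051974 (-2.12, adjusted p = 0.31), and PD0028_141133 (-3.30, adjusted p = 0.0838), and with the floor PD0028_116977 (adjusted p = 0.0504). In the slide block, the first slide is tied to the others by FW petal replicate 1 alone and the third by FGD petal replicate 3 alone. Normexp on mean signals was not run, because the files used here hold median signals.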

Other observations

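Subsets of the 132 probes also varied together between replicates, as a description chosen after seeing the data. The set as a whole did not form a single cluster, and no such clustering of other probes is given for comparison. Deviations from the group means over the 12 arrays were clustered by average linkage to an average correlation of 0.8. This gave 17 clusters of 3 or more probes, which held 89 of the 132, 10 pairs, and 23 single probes. The points share RNA samples and array scaling, and probes of a cluster can measure the same transcript. The largest cluster held 20 probes, among them PD0028_043420 and PD0028_014891, with pairwise correlations of 0.74 or more (median 0.91). All 20 were above FG petals in FG leaves, by 1.68 to 4.51 on the log2 scale, 8 of them as called. On average they were 0.63 above the group mean in FW petal replicate 2 and 0.52 below it in FW petal replicate 1. The next held 10 probes, with FG leaf minus FG petal between 1.74 and 2.93.

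A cluster of 6 probes held PD0028_141133, PD0028_038705, PD0028_045980, PD0028_052413, PD0028_142621, and PD0028_011728, with FG leaf minus FG petal between -7.32 and -1.43. They were 1.09 above the mean of the leaf group in FG leaf replicate 2 and 0.96 below it in replicate 3. The 3 HD40 probes formed a cluster with PD0028_156896 and PD0028_050277. Their mean was 0.98 below the group mean in FG petal replicate 2 and 0.96 above it in replicate 3, while FW petals deviated by 0.37 at most. Both integrase-type probes clustered with PD0028_006943, which was also highest in FG petal replicate 3, with a mean of 0.86 above the group mean. An SD over 0.5 between FG petal replicates was seen in 31 of the 132 probes (23.5%), in 19 of the 37 called lower in leaves and in 2 of the 36 called higher, and in 4.96% of all probes tested. The FG petal SD was widest in PD0028_045334 (1.56) and narrowest in PD0028_020465 and PD0028_175101 (0.05 each).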
